A study of Mus musculus with 8 samples.

Results

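The Hox genes of the mouse were examined as a group, taken as every probe whose platform gene symbol is Hox followed by a cluster letter (a, b, c or d) and a paralogue number. The rule found 50 probes for 38 of the 39 Hox genes in the RefSeq annotation, out of 25697 probes and 16593 named genes on the array; the other Hox gene was not analysed here. RNA of dorsal root ganglia was taken from E12.5 embryos, 4 wild-type samples and 4 of a mutant written Erk1/2CKO(Wnt1) in the labels. The name denotes a conditional knockout of Erk1/2 with Wnt1. A Wnt1-driven Cre acts in neural crest derivatives, which include the neurons and glia of the ganglia but not their vessels and blood. The name does not say whether both genes were deleted in those cells only. The samples were drawn from 3 independent litters, and the labels give neither the litter of a sample, nor whether it was pooled, nor the axial levels from which the ganglia were dissected. Nothing states that replicates are separate embryos, so p-values measure the spread between these samples. The deleted genes themselves were not analysed here, which leaves the genotype labels unchecked.

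Hox genes encode homeodomain transcription factors that specify position along the body axis. They lie in 4 clusters, and their order within a cluster follows the order of their domains along the body: low paralogue numbers are expressed from the hindbrain and neck backwards, and high numbers start progressively closer to the tail. In the spinal cord, where this is best known, members of group 6 mark the forelimb level, Hoxc9 the thorax and members of group 10 the hindlimb level. A set of ganglia taken from a more caudal stretch of the trunk would carry more transcript of the high-numbered genes, and the Hox genes therefore serve as a check on the axial level that was dissected.

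Promoters of a pair of group 9 paralogues are shown because the results below turn on groups 9 and 10. RefSeq promoter sequences (GRCm38.p6, 250 bases before to 50 after the start, on the strand of the gene) were found for 22 of the 38 genes, 24 promoters in all. In the printed sequences each CG dinucleotide is in capitals. CG-rich promoters are typical of Hox clusters, and Polycomb and Trithorax complexes act on them. The Hoxa9 sequence lies at chr6:52227321-52227620 on the minus strand and that of Hoxd9 at chr2:74697513-74697812 on the plus strand.
Hoxa9: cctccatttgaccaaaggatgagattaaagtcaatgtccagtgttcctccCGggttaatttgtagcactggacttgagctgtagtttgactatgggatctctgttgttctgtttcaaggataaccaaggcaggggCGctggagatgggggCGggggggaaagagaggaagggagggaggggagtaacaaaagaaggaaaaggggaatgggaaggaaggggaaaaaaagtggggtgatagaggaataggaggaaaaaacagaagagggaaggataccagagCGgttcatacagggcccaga
Hoxd9: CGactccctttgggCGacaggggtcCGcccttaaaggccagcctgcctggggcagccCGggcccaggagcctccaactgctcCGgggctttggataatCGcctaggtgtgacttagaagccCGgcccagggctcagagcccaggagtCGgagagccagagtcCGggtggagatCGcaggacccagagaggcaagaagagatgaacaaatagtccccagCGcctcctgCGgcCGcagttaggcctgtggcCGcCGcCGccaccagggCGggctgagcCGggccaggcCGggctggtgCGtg
The letters CG occur 20 times in the Hoxd9 window and 4 times in that of Hoxa9. Among all 32851 promoters listed, a share of 26.5% held at least as many as Hoxd9 and 68.6% at least as many as Hoxa9, and 94.6% held at least 1. The median was 14.5 over the 24 Hox promoters, with a range of 4 to 45, and 7 over all promoters. No methylation or binding was measured here, so the sequences describe the genes only.

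All levels below are log2 bead intensities after background correction and normalization. A gene was tested when the mean of a probe over the 8 arrays lay above the median of all probes, 6.71, and its brightest probe stood for it. Levels of different genes come from different probes and are not set against each other. By this filter 22 of the 38 Hox genes were tested: 7 of 10 in the Hoxa cluster, 7 of 10 in Hoxb, 3 of 9 in Hoxc and 5 of 9 in Hoxd. By paralogue number, 4 of 7 genes of groups 1 to 3 were tested, 10 of 15 of groups 4 to 8 and 8 of 16 of groups 9 to 13. All 4 genes of group 9 and all 3 of group 10 lay above the filter level.

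The 16 genes with no probe above it were Hoxa3, Hoxa6, Hoxa11, Hoxb1, Hoxb8, Hoxb13, Hoxc4, Hoxc5, Hoxc8, Hoxc11, Hoxc12, Hoxc13, Hoxd1, Hoxd11, Hoxd12 and Hoxd13. Their 19 probes ranged from 5.76 to 7.29 over all arrays. Among groups 11 to 13, which pattern the tail end of the trunk, the distal limb and the genital tubercle, the exception above the filter was Hoxa13, at a mean of 6.99 in wild-type samples and 6.86 in the mutant, and its other probes lay under the filter level. Hoxa10, at 6.81 and 6.94, was also close to it. Just outside lay Hoxc4, with a mean of 6.64 over the 8 arrays, and Hoxc13, with 6.62. A probe under the filter level does not show that its gene is silent.

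**Figure D1:**
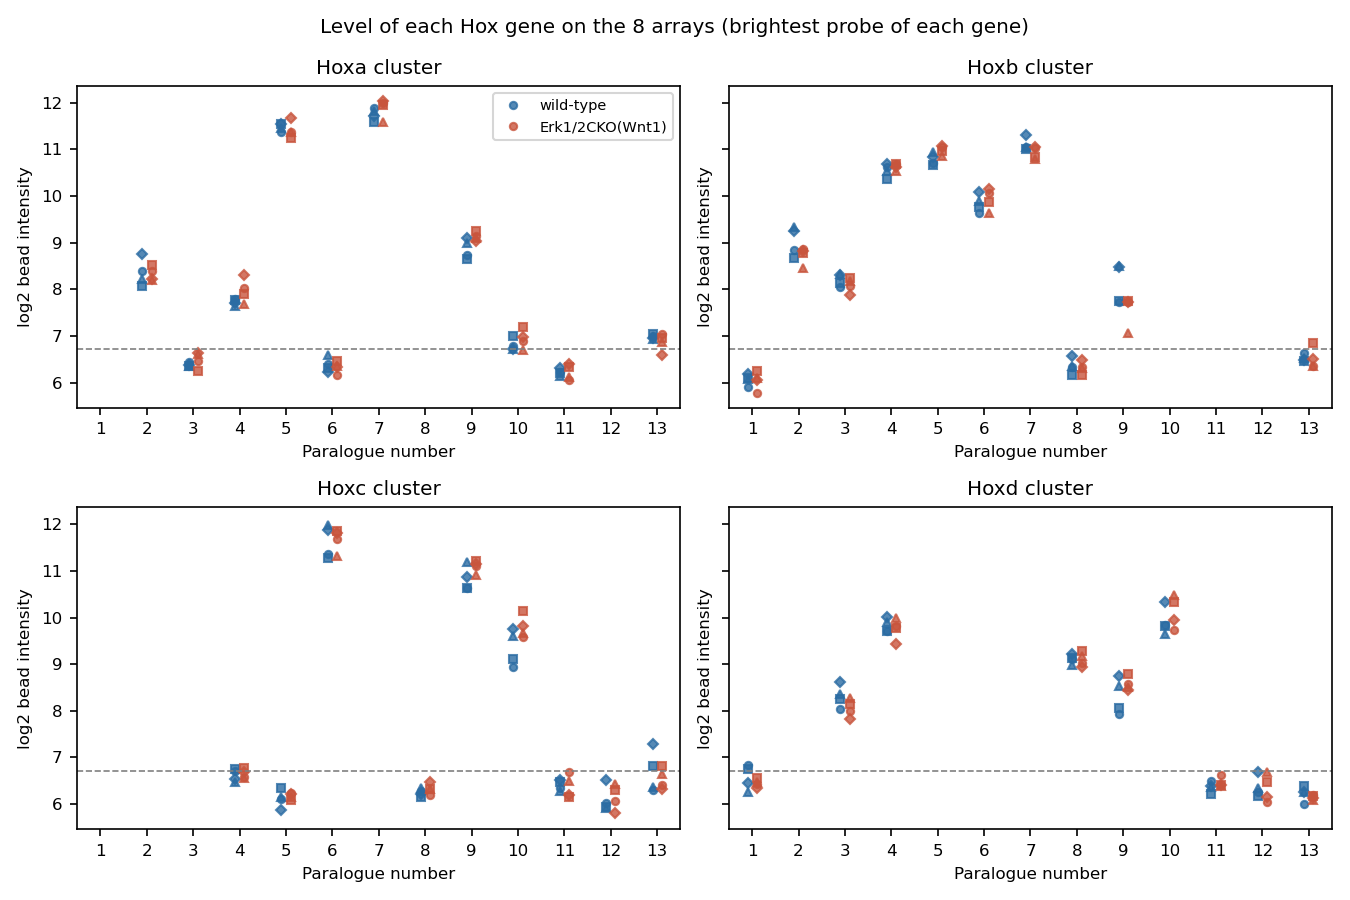
Log2 bead intensity (vertical axis) of the brightest probe of each of the 38 Hox genes against paralogue number (horizontal axis), by cluster. Each point is 1 array, blue for wild-type and red for mutant, with a shape for each replicate, and the dashed line is the filter level of 6.71; blue and red points overlap for every gene above the line, and the probes of groups 11 and 12 lie around or under it.

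The single comparison of the design, mutant against wild-type, asked here whether any Hox gene differed. None of the 22 tested Hox genes passed the test: 0 were higher and 0 lower at a limma adjusted p under 0.05, against 2.51% of all 8935 genes tested. At an unadjusted p under 0.05 there were 3, which is 2 higher (Hoxa9 and Hoxc10) and 1 lower (Hoxb9), against 18.1% of all genes. In none of the 22 did the 4 mutant arrays lie apart from the 4 wild-type arrays, against 12.0% of all genes. Differences were positive for 12 and negative for 10, with a median of 0.06 that turned to -0.04 under median scaling (9 positive and 13 negative, where the median of all genes was -0.06). Of all genes 50.5% were positive, with a median of 0.0018. Without the filter 0 of all 38 Hox genes passed, against 1.32% of 16593 genes.

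A p above the threshold does not show that levels were alike, so the intervals matter. The 95% confidence intervals of the difference lay within a 2-fold change either way for 21 of the 22 genes, the exception being Hoxb9, and within a 1.5-fold change for 17. Over all genes 96.3% and 84.2% of intervals did so. The precision was somewhat lower than over all genes: the median standard error was 0.12 for the Hox genes and 0.10 for all. The median SD between arrays was 0.17 in wild-type samples and 0.19 in the mutant for Hox genes, and 0.15 and 0.12 for all genes.

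**Figure D2:**
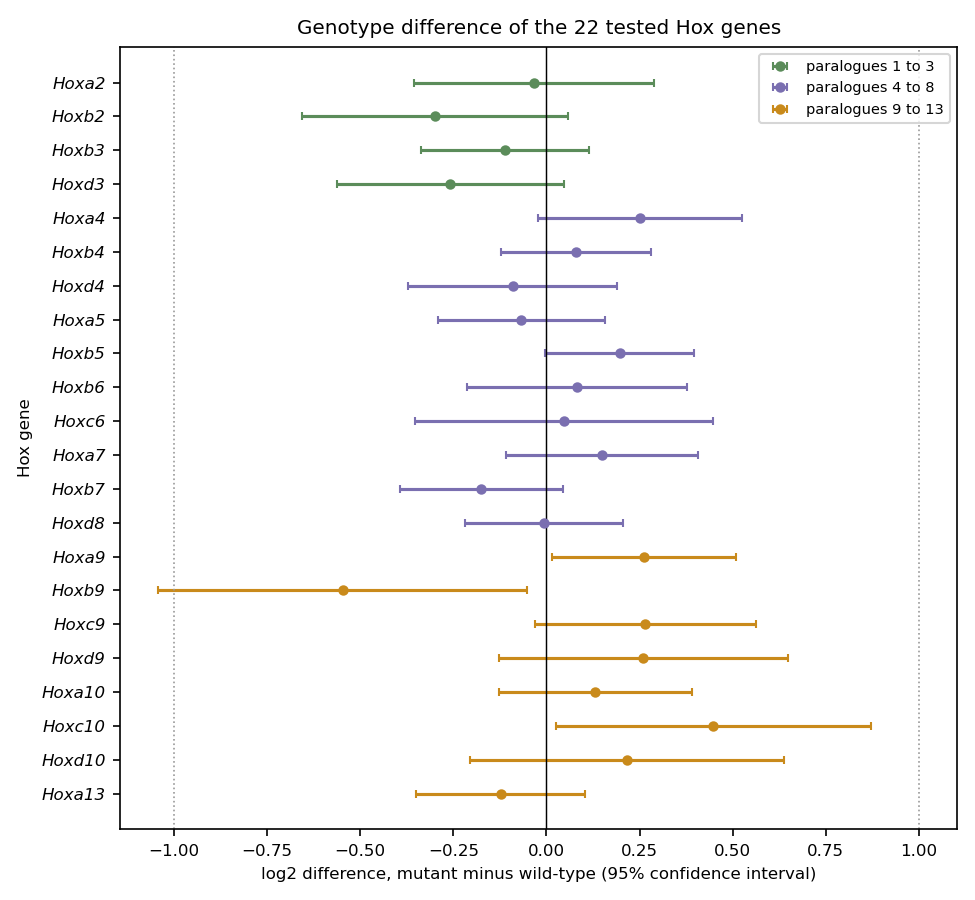
Log2 difference, mutant minus wild-type, with its 95% confidence interval (horizontal axis) for the 22 tested Hox genes (vertical axis), coloured by paralogue group, n = 4 arrays per group; dotted lines mark a 2-fold change. The interval of Hoxb9, from -1.04 to -0.05, reaches past the 2-fold line, and those of the other 21 genes stay inside it.

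Groups 1 to 3 hold the genes of the hindbrain and neck. All 4 tested members had negative differences at their brightest probe, from -0.30 to -0.03, with 0 passing the test. With the mean of a gene's probes 3 were negative and 1, Hoxb3, was positive. Hoxb2, which acts with its paralogue in hindbrain segments, stood at 8.84, 8.67, 9.35 and 9.26 on wild-type replicates 1 to 4 and at 8.87, 8.79, 8.45 and 8.81 on mutant replicates 1 to 4. Wild-type replicates 3 and 4 were its highest arrays, and replicates 1 and 2 lay among the mutant arrays. The difference was -0.30 ± 0.16 (SE, n = 4 per group; limma adjusted p = 0.353), and -0.19 without wild-type replicate 3.

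Hoxd3, which patterns the first neck vertebrae, read 8.05, 8.25, 8.37 and 8.62 in wild-type samples and 7.99, 8.16, 8.28 and 7.83 in the mutant, a difference of -0.26 ± 0.14 (limma adjusted p = 0.346) that was -0.16 without wild-type replicate 4. The groups overlapped, with the highest value on wild-type replicate 4 and the lowest on mutant replicate 4. Hoxa2, which sets the identity of the second pharyngeal arch, was at 8.39, 8.07, 8.22 and 8.77 in wild-type samples and 8.38, 8.51, 8.20 and 8.22 in the mutant. Its difference of -0.03 ± 0.14 (limma adjusted p = 0.932) was smaller than the SD of either group, 0.30 and 0.15, and its second probe differed by -0.09. For Hoxb3 the brightest probe gave -0.11 and the other 2 probes above the filter gave 0.14 and 0.19, so its probes disagreed in sign.

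Groups 4 to 8 are the genes of the neck, shoulder and chest. Of the 10 tested members 6 had positive and 4 negative differences, from -0.17 to 0.25, with a median of 0.06 (-0.04 under median scaling, with 3 positive and 7 negative), and 0 passed. Hoxa4, a gene of the neck vertebrae, read 7.79, 7.78, 7.65 and 7.70 in wild-type samples and 8.02, 7.89, 7.69 and 8.32 in the mutant, where replicate 3 lay among the wild-type arrays. The difference was 0.25 ± 0.12 (limma adjusted p = 0.313), and 0.14 without mutant replicate 4. Hoxc6, a marker of forelimb-level motor neurons in the spinal cord, stood at 11.35, 11.28, 11.98 and 11.87 in wild-type samples and at 11.68, 11.86, 11.32 and 11.80 in the mutant. Its wild-type arrays fell into a low pair (1 and 2) and a high pair (3 and 4), and mutant replicate 3 was level with the low pair. The difference of 0.05 ± 0.18 (limma adjusted p = 0.916) takes its sign from the arrays included: it was -0.26 without wild-type replicates 1 and 2, 0.35 without replicates 3 and 4, and negative under median scaling (-0.06). The other 8 genes of these groups were Hoxb4, Hoxd4, Hoxa5, Hoxb5, Hoxb6, Hoxa7, Hoxb7 and Hoxd8; of these Hoxb5 had the smallest adjusted p (0.283), at a difference of 0.20 ± 0.09.

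Groups 9 to 13 are the genes of the lower chest, loin and tail, and they held the largest differences in both directions. Of the 8 tested members 6 had positive and 2 negative differences, with a median of 0.24, and 0 passed. That median was 0.14 under median scaling and 0.029 over all 16 genes without the filter (8 positive and 8 negative). It was 0.07 without wild-type replicates 1 and 2 (5 positive and 3 negative) and 0.37 without replicates 3 and 4. Hoxc10, a gene of the hindlimb level in the spinal cord, stood at 8.94, 9.11, 9.60 and 9.76 on wild-type replicates 1 to 4 and at 9.58, 10.13, 9.67 and 9.81 on the mutant arrays. Wild-type replicates 1 and 2 lay under every mutant array, and replicates 3 and 4 lay among them. The difference was 0.45 ± 0.19 (interval 0.02 to 0.87, limma adjusted p = 0.248), and at its second probe, also above the filter, 0.22.

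Hoxb9, which with its paralogues shapes the rib-bearing vertebrae, ran the other way. Its levels were 7.73, 7.76, 8.50 and 8.47 in wild-type samples and 7.73, 7.74, 7.05 and 7.73 in the mutant. Mutant replicates 1, 2 and 4 were level with wild-type replicates 1 and 2, and the difference rested on the 2 high wild-type arrays and the low mutant replicate 3. It was -0.55 ± 0.22 (interval -1.04 to -0.05, limma adjusted p = 0.227). Leaving out mutant replicate 3 gave -0.38 (limma adjusted p = 0.389).

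The other genes of group 9 were lower on wild-type replicates 1 and 2 than on 3 and 4 too, but had positive differences. Hoxc9, which sets thoracic identity in spinal motor neurons, was at 10.63, 10.62, 11.20 and 10.87 in wild-type samples and 11.11, 11.22, 10.91 and 11.15 in the mutant, a difference of 0.27 ± 0.13 (limma adjusted p = 0.322). Hoxd9, whose promoter is printed above, read 7.93, 8.06, 8.54 and 8.75 in wild-type samples and 8.57, 8.79, 8.51 and 8.45 in the mutant (0.26 ± 0.17, limma adjusted p = 0.465). For Hoxc9 wild-type replicates 1, 2 and 4 lay under all 4 mutant arrays and replicate 3 overlapped them. For Hoxd9 replicates 1 and 2 lay under them and replicates 3 and 4 overlapped, and without wild-type replicate 1 its difference was 0.13.

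Hoxa9, known also for its part in blood progenitors, read 8.74, 8.64, 8.99 and 9.10 in wild-type samples and 9.15, 9.25, 9.09 and 9.04 in the mutant. The difference was 0.26 ± 0.11 (limma adjusted p = 0.245), and its second probe above the filter gave 0.25. The groups overlapped through wild-type replicate 4. Hoxd10, a gene of the hindlimb level, was at 9.84, 9.82, 9.64 and 10.34 in wild-type samples and 9.74, 10.33, 10.49 and 9.94 in the mutant, with no order by group or by pair (0.22 ± 0.19, limma adjusted p = 0.586). Leaving out single arrays moved it between 0.094 (mutant replicate 3) and 0.36 (wild-type replicate 4). Hoxa10 and Hoxa13, both close to the filter level, differed by 0.13 and -0.12.

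**Figure D3:**
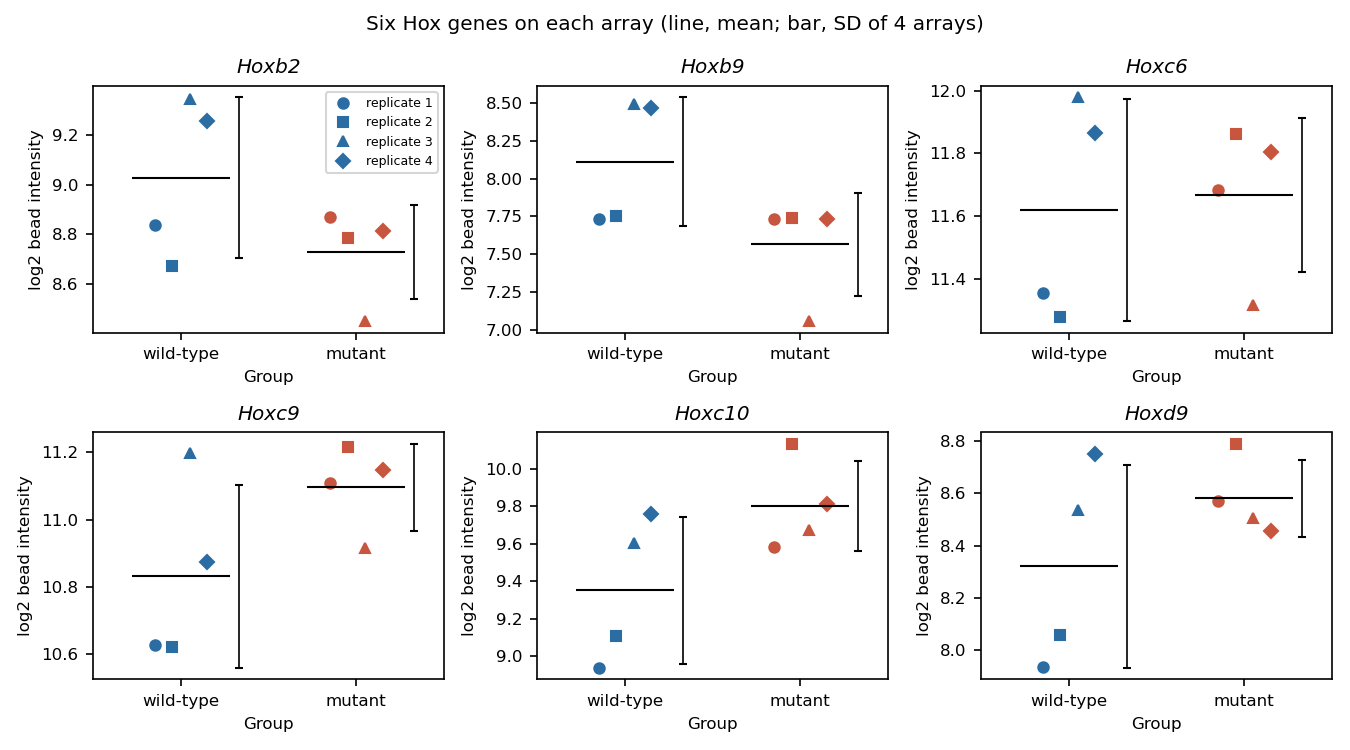
Log2 bead intensity (vertical axis) of Hoxb2, Hoxb9, Hoxc6, Hoxc9, Hoxc10 and Hoxd9 by group (horizontal axis); points are arrays with a shape for each replicate, the horizontal line is the mean of 4 arrays and the bar at its side the SD. Wild-type replicates 1 and 2 lie under replicates 3 and 4 in all 6 panels, and the mutant arrays sit near the low pair for Hoxb2 and Hoxb9, near the high pair for Hoxc10 and Hoxd9. The panels are a selection of the genes described in the text. Hoxa2, Hoxa4 and Hoxd10, which are not shown, do not have this order of the wild-type arrays.

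The wild-type arrays formed pairs over the whole array, and Hox genes were called only in fits with 1 of these pairs left out. Replicates 1 and 2 correlated at 0.994 across genes and replicates 3 and 4 at 0.993, within a range of 0.970 to 0.994 over all pairs of arrays; genes are not independent replicates. With wild-type replicates 1 and 2 left out, 2 of 22 Hox genes were called, against 13.6% of all genes. Hoxb2 (-0.57 ± 0.13, limma adjusted p = 0.0218) and Hoxb9 (-0.92 ± 0.19, adjusted p = 0.0175) were lower in the mutant. With replicates 3 and 4 left out, 2 of 22 were called, against 2.37% of all genes. Hoxc10 (0.78 ± 0.15, limma adjusted p = 0.0363) and Hoxd9 (0.58 ± 0.11, adjusted p = 0.0363) were higher, and Hoxb2 and Hoxb9 stood at -0.02 and -0.18. The genes called in 1 of these fits were not called in the other: Hoxc10 stood at 0.12 (adjusted p = 0.649) and Hoxd9 at -0.06 (adjusted p = 0.762) without replicates 1 and 2. Each of these fits sets 2 wild-type arrays against 4 mutant arrays. The pairs were known from the data, so the calls are no independent evidence of a genotype difference.

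**Figure D4:**
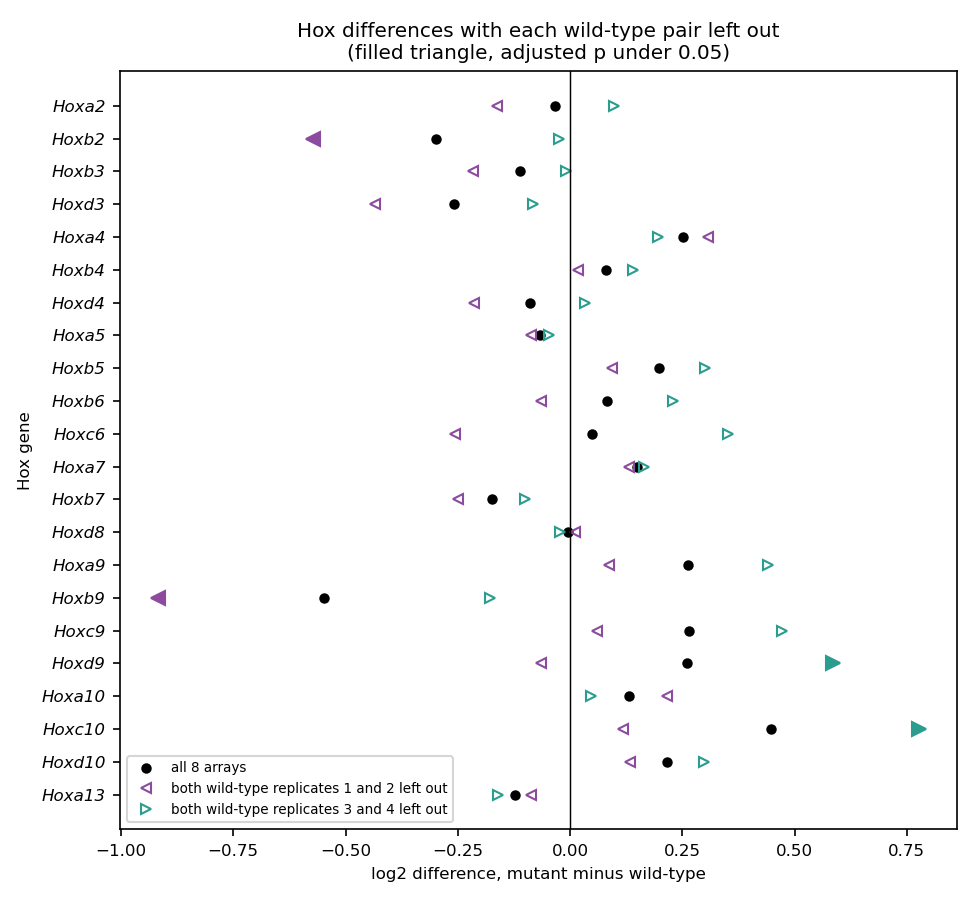
Log2 difference, mutant minus wild-type (horizontal axis), for the 22 tested Hox genes (vertical axis), on all 8 arrays (dots), without wild-type replicates 1 and 2 (triangles pointing left) and without replicates 3 and 4 (triangles pointing right); filled triangles mark an adjusted p under 0.05. The filled triangles are Hoxb2 and Hoxb9 to the left and Hoxc10 and Hoxd9 to the right, and Hoxa2, Hoxb6, Hoxc6, Hoxd4, Hoxd8 and Hoxd9 differ in sign between the 2 fits.

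As a check on the axial level of each array, the level of each gene relative to its mean over the 8 arrays was averaged over a paralogue group. For groups 9 to 13 the wild-type arrays stood at -0.26, -0.20, 0.06 and 0.17 and the mutant arrays at 0.02, 0.25, -0.04 and 0.0053. The wild-type range enclosed all mutant arrays but replicate 2. For groups 4 to 8 they stood at -0.08, -0.12, 0.02 and 0.09 in wild-type samples and 0.07, 0.03, -0.11 and 0.10 in the mutant, with overlapping groups. For groups 1 to 3 the values were -0.06, -0.11, 0.17 and 0.35 in wild-type samples and -0.06, 0.03, -0.12 and -0.21 in the mutant. On these averages wild-type replicates 1 and 2 were thus low, and replicates 3 and 4 high, at the head end and at the tail end of the series alike. Not every gene had this order. For the tested Hoxa genes the mean level was -0.04, -0.09, -0.07 and 0.03 on the wild-type arrays, with no such pairs.

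The level of groups 9 to 13 minus that of groups 4 to 8 would be higher in an array with more caudal ganglia. It was -0.18, -0.08, 0.04 and 0.08 on the wild-type arrays and -0.05, 0.21, 0.07 and -0.10 on the mutant arrays. The mean was -0.03 ± 0.12 (SD, n = 4) in wild-type samples and 0.03 ± 0.14 in the mutant, a difference of 0.07 that is smaller than the SD of either group. The clusters did not move as one: taken alone, the same contrast was -0.02 in Hoxa, -0.59 in Hoxb (where Hoxb9 is the single gene of groups 9 to 13), 0.31 in Hoxc and 0.29 in Hoxd. Leaving Hoxb9 out gave 0.16, an alternative chosen after the values were seen. For the 3 tested Hoxc genes the mean level was -0.42, -0.39, 0.20 and 0.11 on the wild-type arrays. On the mutant arrays it was 0.07, 0.34, -0.09 and 0.19. The wild-type spread was the widest of any cluster (SD 0.33, against 0.05 to 0.20 in the others). The levels of Hoxa, Hoxb and Hoxd average 7, 7 and 5 genes, so these spreads are not like for like.

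**Figure D5:**
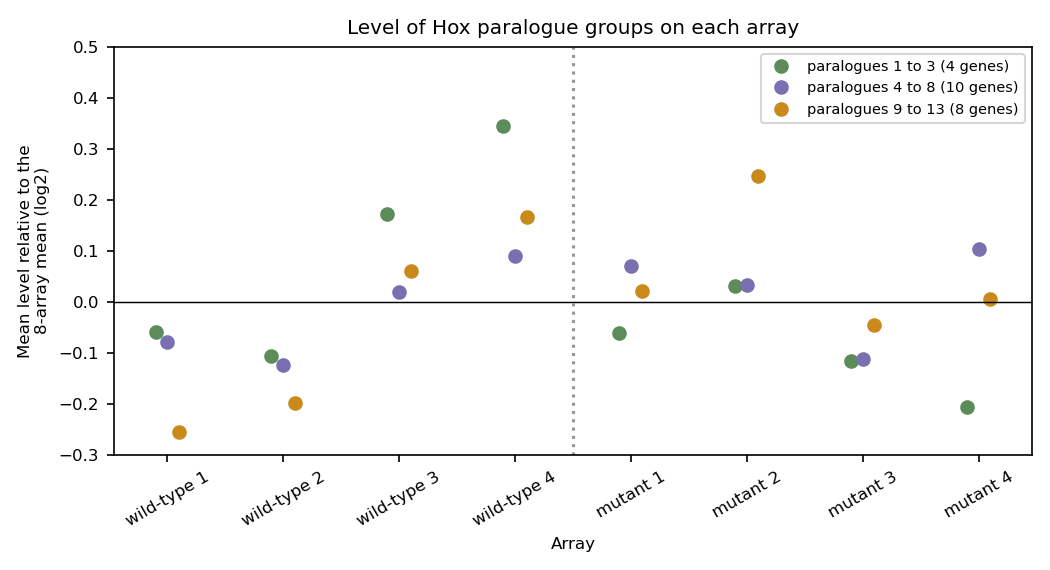
Mean level of the tested Hox genes of paralogue groups 1 to 3, 4 to 8 and 9 to 13 relative to their mean over the 8 arrays (log2, vertical axis) on each array (horizontal axis); each point is the mean over the genes of a group on 1 array. Wild-type replicates 1 and 2 lie below 0 for all 3 groups and replicates 3 and 4 above it, and the mutant arrays lie on both sides.

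Hox proteins bind DNA together with TALE homeodomain cofactors of the Pbx, Meis and Pknox families. All 7 cofactor genes with a probe were tested and 0 passed, against 2.51% of all genes, with 5 differences negative, 2 positive and a median of -0.15 (all genes 0.0018). Without mutant replicate 3 that median was -0.0059, with 3 positive and 4 negative. Meis1, a cofactor of many Hox proteins, stood at 9.90 ± 0.16 (SD, n = 4) in wild-type samples and 9.50 ± 0.10 in the mutant. Its difference was -0.40 ± 0.10 (SE, limma adjusted p = 0.0640). Of the 7 genes, 1 was lower without overlap of the groups (Meis1) and 1 higher, against 12.0% of all genes in either direction. The higher gene was Pknox1 (0.18 ± 0.08, limma adjusted p = 0.27), named after its values were seen. Meis2 differed by -0.15 ± 0.21 (limma adjusted p = 0.766).

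Retinoic acid sets the head-to-tail order of Hox expression in the embryo. Of 9 tested genes of its pathway 0 passed, against 2.51% of all genes, with 6 positive and 3 negative differences and a median of 0.04 (-0.0066 without wild-type replicate 2); the binding protein gene Crabp2 stood at -0.34 ± 0.17 (limma adjusted p = 0.338) and the receptor gene Rxrb at 0.08 ± 0.08 (adjusted p = 0.623). Stra6, the receptor that takes up retinol, was named after its values were seen: it was at 9.14, 8.83, 8.20 and 8.12 in wild-type samples and 9.65, 9.39, 9.54 and 9.23 in the mutant (0.88 ± 0.21, limma adjusted p = 0.0640). Its groups did not overlap, which held for 1 of the 9 tested genes, against 12.0% of all genes.

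Polycomb complexes keep Hox genes silent ahead of their domains and Trithorax complexes keep them active. Of 18 tested members 1 rose and 17 did not pass, against 2.51% of all genes called. There were 13 positive and 5 negative differences with a median of 0.05, where 50.5% of all genes were positive. The gene that rose was Phc2, a subunit of Polycomb repressive complex 1, at 11.64, 11.70, 11.75 and 11.61 in wild-type samples and 12.07, 12.08, 11.96 and 11.98 in the mutant (0.34 ± 0.07, limma adjusted p = 0.0390). The call of Phc2 was lost whichever single array was left out and under median scaling, where the list split into 9 and 9. Of the regulators of the posterior axis (Cdx, Evx and others), 1 of 7 genes with a probe lay above the filter, Cdx1, at 6.90 ± 0.06 (SD, n = 4) in wild-type samples and 6.79 ± 0.07 in the mutant (limma adjusted p = 0.462).

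Genes that flank the Hox clusters share their chromosomal neighbourhood but not their role. Of 14 tested neighbours 0 passed, against 2.51% of all genes. Differences were negative for 13 and positive for 1, where 50.5% of all genes were positive, with a median of -0.17. The median was -0.24 under median scaling and -0.11 without mutant replicate 2. The brightest were Atp5g3, a mitochondrial ATP synthase subunit gene beside Hoxd (-0.05 ± 0.07, limma adjusted p = 0.757), and Hnrnpa1, an RNA-binding protein gene beside Hoxc (-0.22 ± 0.12, adjusted p = 0.343). The single positive difference was that of Calcoco1 (0.34 ± 0.09, limma adjusted p = 0.0835), named after its values were seen.

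Hox genes are expressed in every trunk tissue, so markers of the ganglion and of tissues around it are given beside these levels, again relative to the mean over the arrays. Of 11 ganglion markers with a probe 9 lay above the filter and 0 passed, against 2.51% of all genes. These markers averaged 0.22, 0.10, -0.16 and -0.07 across the wild-type arrays in replicate order and -0.02, -0.09, -0.14 and 0.17 on the mutant arrays. On this average wild-type replicates 1 and 2 were higher than 3 and 4, opposite to the averaged Hox levels. The sensory neuron factor Isl1 stood at 14.62, 14.36, 14.15 and 14.30 on the wild-type arrays and 14.45, 14.37, 14.49 and 14.52 on the mutant arrays. Prph, a neuronal intermediate filament gene named after its values were seen, stood at 12.02, 12.12, 10.83 and 11.15 on the wild-type arrays and 11.54, 11.27, 11.11 and 12.04 on the mutant arrays. Not all members followed the average. Ntrk3, also named after its values were seen, went the other way, at 9.02, 9.03, 9.81 and 9.51 on the wild-type arrays. Tubb3, at 7.24, 7.08, 7.25 and 7.10, had no order by pair. Of 19 spinal cord markers 4 lay above the filter (Nkx6-1, Gata2, Lhx3 and Tal1), and the motor neuron genes Mnx1, Chat and Slc18a3 did not. The level of those 4 was -0.14, -0.17, 0.31 and 0.04 on wild-type replicates 1 to 4 and -0.13 to 0.07 in the mutant. The 11 tested limb and paraxial mesoderm markers averaged -0.06, -0.08, 0.15 and -0.05 on wild-type replicates 1 to 4 and -0.08 to 0.13 in the mutant. Their members differed. In replicate order Col2a1 stood at 8.75, 8.97, 9.80 and 9.69 on the wild-type arrays, and Pdgfra at 10.13, 10.05, 9.98 and 9.85.

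Muscle markers, 4 of 11 above the filter, stood at 0.43, 0.27, -0.25 and -0.39 on wild-type replicates 1 to 4 and ranged from -0.81 to 0.81 in the mutant. The 13 tested vessel and blood markers averaged -0.08 and -0.29 on wild-type replicates 1 and 2. They averaged 0.45 and 0.18 on replicates 3 and 4, and from -0.18 to 0.01 in the mutant. On average the ganglion and muscle markers were thus higher on wild-type replicates 1 and 2. The averages of the spinal cord and of the vessel and blood markers were higher on replicates 3 and 4. Hox genes were called only in fits with 1 of these wild-type pairs left out. Members of the last 2 lists differed. In replicate order Nkx6-1 stood at 7.31, 7.16, 8.27 and 7.98 on the wild-type arrays. Lhx3 was higher on replicates 1 and 2. Hbb-bh1 stood at 12.06, 11.39, 13.96 and 13.61. Emcn stood at 11.13, 10.94, 11.09 and 10.75, and Hbb-y at 14.36, 14.35, 14.28 and 14.33. Lhx3, Hbb-bh1 and Emcn were named after their values were seen. Called were 0 of 4 spinal cord, 0 of 11 mesoderm, 0 of 4 muscle and 0 of 13 vessel and blood markers. Of all genes 2.51% were called. In bulk tissue fewer cells of a type and less RNA per cell cannot be told apart, and the part of these tissues in the Hox levels was not tested. All arrays lay on 1 slide with the groups in separate positions, so position and genotype cannot be told apart.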

How the data were processed

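Illumina bead arrays of 4 wild-type and 4 mutant samples were used. The deposited bead intensity values are linear, not below 80.3, with neither background subtracted nor detection p-values; BeadStudio, without a version, is named per the submitters' processing notes. The median raw intensity per array was 138 to 159, and precision is set by how few arrays there are. The authors' deposited log2 table equals log2 and quantile normalization of these intensities within 5e-09 (median 7.21 in every column) and served as an alternative.

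Intensities were corrected with normexp (offset 50), then log2 transformed and quantile normalized (limma 3.58.1, R 4.3.3). This offset shrinks the differences of dim probes. Symbols came from the platform annotation, updated by Entrez identifier (23978 of 25697 probes named). Probes with a mean above 6.71 (12848) were kept and the brightest was used for each gene, giving 9664 features with 8935 named genes among them. Mutant minus wild-type was tested with lmFit and eBayes, two-sided, without covariates, Benjamini-Hochberg adjusted over the 9664 features, and calls were made at adjusted p under 0.05. The procedure was tested on simulated data. Lists are described by counts and medians without a test.

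The members and lists were chosen with earlier results of these data known. Array values are given for the 2 tested genes per cluster with the largest absolute difference and the 2 with the largest range, and for lists every called gene or else the 2 brightest. Alternatives were other background corrections, normalizations, filters, probe summaries and variance models, the replicate number as a block, and leaving out single arrays or a wild-type pair.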

Additional observations from a re-analysis of the deposited data

Results flagged for a closer look

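In 3 of 66 groups of 4 arrays examined, 1 array lay far from the other 3, that is, its gap to the nearest exceeded 0.829 of the whole range; chance flags about 1 group in 20. Hoxb9 on mutant replicate 3 was 7.05, against 7.73 to 7.74 on the other mutant arrays. Hoxb7, a gene of the chest level, was 11.31 on wild-type replicate 4, against 11.01 to 11.05 on the other wild-type arrays. The mean level of the 7 tested Hoxa genes was -0.11 on mutant replicate 3, against 0.08 to 0.11 on the other mutant arrays.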

How the results depend on the processing

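No Hox gene was called under any background correction, normalization, filter, probe summary, variance model or block, nor without any single array (0 in each); leaving out wild-type replicates 1 and 2 gave 2 calls, leaving out 3 and 4 also gave 2, and 3 passed at an unadjusted p under 0.05. Over all genes 224 were called, and 341 with array weights. Dropping wild-type replicates 1 and 2 gave 1218, and dropping 1 array gave 67 to 200, with 128 for wild-type replicate 3, 89 for wild-type replicate 4, 67 for mutant replicate 1 and 79 for mutant replicate 2. Under median scaling 76.1% of calls were lower, against 44.2%. The labels do not say whether equal replicate numbers pair the samples. Same-numbered arrays deviated from their group means with correlations of -0.28 to -0.05, so no pairing was seen. With the replicate block 82 genes and 0 Hox genes were called. The level of groups 4 to 8, mutant minus wild-type, was 0.05, and -0.051 under median scaling. The contrast of groups 9 to 13 with 4 to 8 was 0.07 on all arrays, 0.0073 to 0.11 without 1 array, 0.27 with the filter at the upper quartile, and -0.59, 0.31 and 0.29 in Hoxb, Hoxc and Hoxd alone; the cause was not tested. Signs turned for Hoxc6 under median scaling (-0.062), with 1 array left out (range -0.066 to 0.17, negative for wild-type replicates 1 and 2 and mutant replicate 2) and without wild-type replicates 1 and 2 (-0.26). They turned for Hoxa2 with 1 array left out (range -0.13 to 0.10, positive for wild-type replicate 4 and mutant replicates 3 and 4) and with both wild-type replicates 3 and 4 left out (0.098), and for Hoxd9 without wild-type replicates 1 and 2 (-0.064). Of the other tested Hox genes, Hoxb6 (-0.010) and Hoxb4 (-0.027) turned under median scaling. Hoxb6 (-0.065) and Hoxd8 (0.010) turned without wild-type replicates 1 and 2, and Hoxd4 (0.034) without replicates 3 and 4. Hoxb3 turned positive with the mean of its probes. Values without single arrays are not given for these genes. None of these was called. In the lists 0 or 1 gene was called under most alternatives: 0 to 1 of the retinoic acid pathway and 0 to 2 of the vessel and blood markers without 1 array, 0 Polycomb genes whichever single array was left out and with offset 16, median scaling, no filter or the replicate block. Without wild-type replicates 1 and 2 the counts were 2 cofactors, 1 retinoic acid gene, 2 Polycomb genes, 1 neighbour, 1 mesoderm and 4 vessel and blood genes, against 13.6% of all genes called in that fit; without replicates 3 and 4, 1 cofactor, 0 Polycomb genes and 1 spinal cord gene, against 2.37%. Slide position as a block was not run, since it separates the groups. Median scaling and array weights each called 1 cofactor, and array weights 1 retinoic acid gene.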
